A study of Lactuca sativa with 9 samples.

Results

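Lettuce leaves of the cultivar "The Hong Kong Glass lettuce", aged 24 d, were compared by the level of 1 gene, LOC111916510, which encodes proliferating cell nuclear antigen (PCNA), the clamp that holds DNA polymerase on its template during DNA replication. The libraries were chosen by this measured level and not by a label. Las_SL1, Las_SL3, Las_ML2, Las_ML3 and Las_WL1 had at least 5 FPKM of the gene (fragments per kilobase of transcript, scaled to the mapped fragments of the library) and are called PCNA-high here. Las_SL2, Las_ML1, Las_WL2 and Las_WL3 had less and are called PCNA-low. The sets thus held 5 and 4 of the 9 libraries of the series, and each of its 3 light groups gave libraries to both sets. Las_WL was grown at 60, Las_ML at 175 and Las_SL at 340 µmol per square metre per second, with 3 libraries each, and no other treatment was named. Each library came from cut and mixed leaves, so it is an average over cells of different age and type. In such material, a smaller share of dividing cells and less RNA per dividing cell cannot be told apart.

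A leaf grows first by cell division and later by cell expansion. Cells that divide copy their DNA and histones in S phase, then make the cyclins, cyclin-dependent kinases, kinesins and tubulins that drive mitosis, and close the division with the phragmoplast, the microtubule array that builds the new cell wall in plants. Genes of DNA replication and histones were set aside, because they are read out by the same process as the gene of the rule. The results below describe the other genes and the circular RNAs (circRNAs), which are detected by reads that cross a back-splice junction.

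PCNA had 30.7, 13.1, 20.3, 23.3 and 134.1 FPKM in the PCNA-high libraries Las_SL1, Las_SL3, Las_ML2, Las_ML3 and Las_WL1, against 0.377, 0.889, 1.12 and 0.448 FPKM in the PCNA-low libraries Las_SL2, Las_ML1, Las_WL2 and Las_WL3. Las_SL3 was the library nearest to the threshold from above and Las_WL2 from below, and no library had a value between 1.12 and 13.1 FPKM. Las_WL1 stood apart as the library with the most PCNA. Of the 260 set-aside genes tested, 148 (56.9%, against 4.98% of all genes) were counted as higher by the rule given below. A core histone gene, LOC111905577, had 121.4, 47.6, 79.6, 85.8 and 591.1 FPKM in the PCNA-high libraries, against 0.159, 1.07, 3.40 and 0.769 FPKM in the PCNA-low ones.

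For every gene, the mean of log2(FPKM + 1) in PCNA-high libraries minus that in PCNA-low libraries was taken after adjustment for the light group, and it is given below as the log2 difference with its standard error (SE). On this scale changes of genes with low values are understated. Since the sets were defined by an expression value of the same libraries, no test was made between them, and the differences are a description. A gene was counted as higher when its lowest PCNA-high library lay above its highest PCNA-low library and the log2 difference was at least 1. It was counted as lower in the mirrored case.

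Of the 26145 genes with a mean of at least 0.5 FPKM, 1302 (4.98%) were counted as higher in PCNA-high libraries and 15 (0.0574%) as lower. Without the limit on the size, the sets did not overlap for 3608 genes (13.8%) that were higher and 113 genes (0.432%) that were lower. Only 148 of the 1302 genes were set-aside genes of replication and histones, and 937 lay outside all 15 gene lists. The median log2 difference of all genes was 0.10. The set took up a median of 76.0% of the variance within light groups for the genes counted as higher, a share that the way they were picked raises, and 38.1% for all genes.

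Las_WL1 carried much of the size of these differences. It was the library with the highest value for 1288 of the 1302 genes (98.9%), whereas it was the highest for 35.1% of all genes. The median log2 difference of the 1302 genes was 2.62 within Las_WL, 0.88 within Las_ML and 1.11 within Las_SL. Without Las_WL1, 647 genes were counted as higher, of which 630 were among the 1302, whereas without Las_ML1 there were 2229. Las_WL1 also had the fewest back-spliced reads, and the part of either feature in the other was not tested.

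The label of the comparison was checked with genes the rule did not use. Cyclins bind and activate cyclin-dependent kinases, and the B2 class of these kinases is specific to plants and acts around mitosis. Of 68 cell cycle regulators, 31 (45.6%, against 4.98% of all genes) were counted as higher and none as lower. The list had a median log2 difference of 0.84 (0.60 without Las_WL1). Without Las_WL1, 19 of its genes (27.9%, against 2.47% of all genes) were counted as higher. The cyclin-dependent kinase B2-2 gene LOC111878453 had 23.5, 12.9, 15.4, 21.0 and 112.0 FPKM in the PCNA-high libraries, against 0.02, 0.79, 2.09 and 0.32 FPKM in the PCNA-low libraries, in the same order of libraries as for PCNA. Its log2 difference was 4.46 (SE 0.56), and 3.79 without Las_WL1. The cyclin LOC111895651 had 8.61 to 73.4 FPKM in PCNA-high libraries and 0 to 0.84 FPKM in PCNA-low libraries, and the cyclin LOC111889445 had 4.52 to 42.8 FPKM and 0 to 0.51 FPKM. Both cyclin genes were thus below 1 FPKM in all 4 PCNA-low libraries.

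Spindle and phragmoplast genes were the next group. Of 89 genes for kinesins, tubulins and their partners, 36 (40.4%, against 4.98% of all genes) were counted as higher and none as lower. The list had a median log2 difference of 1.08 (0.69 without Las_WL1). Alpha tubulin, a subunit of microtubules, was encoded by LOC111885307, which had 19.7, 9.43, 12.9, 14.5 and 102.3 FPKM in the PCNA-high libraries, against 0.10, 0.48, 1.01 and 0.24 FPKM in the PCNA-low libraries. Another alpha tubulin gene, LOC111906810, had 50.0 to 377.9 FPKM in PCNA-high libraries and 6.98 to 15.2 FPKM in PCNA-low libraries, so it was far from 0 in either set. Tubulins are a family of similar copies, and reads may have been divided between them. The kinesin LOC111889633, a motor that moves along microtubules, had 9.09 to 79.8 FPKM in PCNA-high libraries and 0.21 to 1.299 FPKM in PCNA-low libraries (log2 difference 3.90, SE 0.56).

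**Figure D1:**
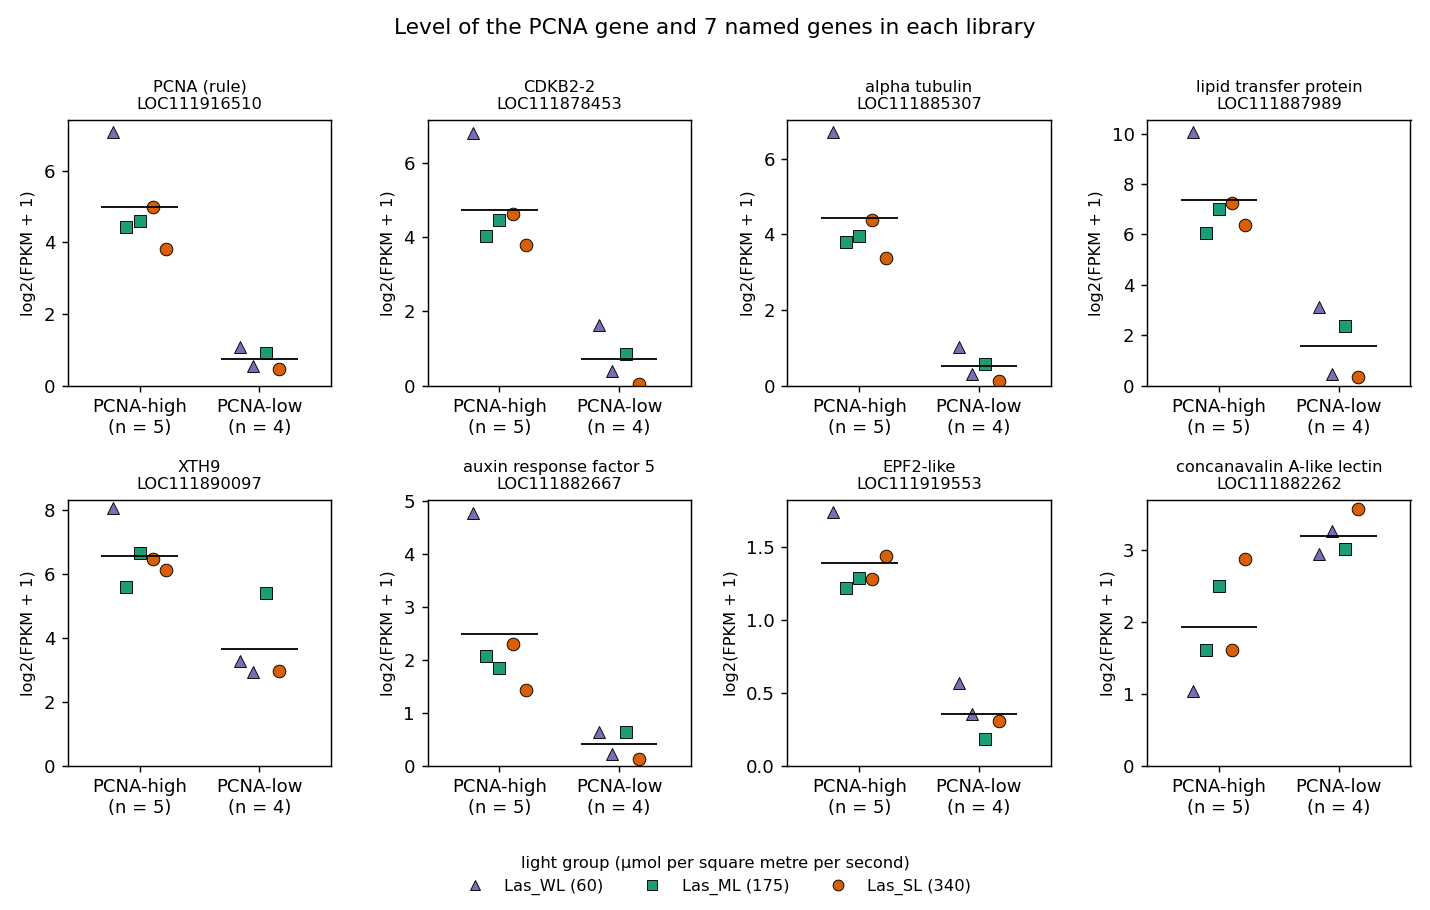
log2(FPKM + 1) of the PCNA gene and 7 named genes in the 5 PCNA-high and 4 PCNA-low libraries, where each point is a library, the colour and shape give the light group and the line is the mean of the set. The sets do not overlap for any of the 8 genes. The Las_WL point on the PCNA-high side is Las_WL1, which is the highest library in the panels of the 7 genes that are higher in PCNA-high libraries and the lowest in that of the lectin gene.

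The genes whose profile over the 9 libraries was most like that of PCNA were found by the root mean square distance of their centred log2(FPKM + 1) values. They were the alpha tubulin gene LOC111885307 (distance 0.18), a syntaxin gene, LOC111919148 (0.21), a high mobility group B gene, LOC111921235 (0.21), the cyclin LOC111895651 (0.24) and the kinase gene LOC111878453 (0.28). Syntaxins are membrane proteins of vesicle fusion. LOC111919148 had 18.7, 10.2, 12.7, 16.2 and 107.7 FPKM in the PCNA-high libraries, against 0.10, 0.70, 1.09 and 0.29 FPKM in the PCNA-low libraries. A distance of this size means that a gene kept nearly the same spacing between libraries as PCNA did, including the high value in Las_WL1.

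In the lists of chromosome structure and of chromatin a smaller share of genes was counted as higher than in the cell cycle and spindle lists. This order did not hold without the limit on the size. The sets then did not overlap, in the higher direction, for 58.3% and 53.5% of the genes. In the cell cycle and spindle lists this was so for 54.4% and 49.4%, against 13.8% of all genes. Condensins and cohesins are ring-shaped complexes built on structural maintenance of chromosomes (SMC) proteins, which compact chromosomes and hold sister chromatids together. Of 24 genes of this kind, 9 (37.5%, against 4.98% of all genes) were counted as higher. The list had a median log2 difference of 0.72. Without Las_WL1, 6 of its genes (25.0%, against 2.47% of all genes) were counted as higher and the median was 0.30. The condensin gene LOC111912015 had 2.64 to 21.6 FPKM in PCNA-high libraries and 0.09 to 0.42 FPKM in PCNA-low libraries, and the SMC2 gene LOC111904051 had 2.41 to 26.0 FPKM and 0.06 to 0.46 FPKM. A further SMC gene, LOC111885312, differed by 2.73 (SE 0.59). Of 43 genes of chromatin and DNA methylation, 10 (23.3%, against 4.98% of all genes) were counted as higher. The list had a median log2 difference of 0.51 (0.25 without Las_WL1). The 3 with the largest differences in this list all encode high mobility group proteins, which bend DNA and bind nucleosomes. LOC111921235 had 13.3 to 143.2 FPKM in PCNA-high libraries and 0.58 to 2.24 FPKM in PCNA-low libraries, and LOC111912377 and LOC111894268 differed by 3.84 (SE 0.55) and 2.96 (SE 0.51). Without Las_WL1 these 3 genes were the only ones of the list still counted as higher (6.98%, against 2.47% of all genes).

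Ribosomal proteins had the most genes tested of all lists. Of 267 genes for proteins of cytosolic and organellar ribosomes, 102 (38.2%, against 4.98% of all genes) were counted as higher. The sets did not overlap for 182 of the 267 genes (68.2%, against 13.8% of all genes) in the higher direction. The list had a median log2 difference of 0.91, which was 0.41 within Las_SL, 0.61 within Las_ML and 1.75 within Las_WL. The summed level of the tested ribosomal protein genes was 19970 to 45910 FPKM in PCNA-high libraries and 12720 to 15920 FPKM in PCNA-low libraries. The median was between those of the cell cycle list and the spindle list, and the PCNA-low libraries had high levels too. The ribosomal protein S2 gene LOC111916774 had 58.6, 40.5, 47.4, 53.5 and 214.9 FPKM in the PCNA-high libraries, against 23.7, 18.6, 24.1 and 18.0 FPKM in the PCNA-low libraries. LOC111891564, which encodes 60S ribosomal protein L14-1, and LOC111895270, which encodes ribosomal protein L29, both differed by 1.75 (SE 0.40 and 0.43). Without Las_WL1 the median was 0.51. Then 8 of the 267 genes (3.0%, against 2.47% of all genes) were counted as higher, because most members differed by less than 1. After quantile normalization the median was 0.69, and 46 genes of the list, among 790 of all genes, were counted as higher. Without Las_SL2, 165 genes were (61.8%, against 6.75% of all genes). In the other direction, the sets did not overlap for 3 of the 267 genes, against 0.432% of all genes. They were annotated as mitochondrial ribosomal protein L10 (LOC111918697, LOC111900480 and LOC111904009) and differed by -0.22 to -0.31. These 3 genes were picked out after their values were seen and are near-identical by description.

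**Figure D2:**
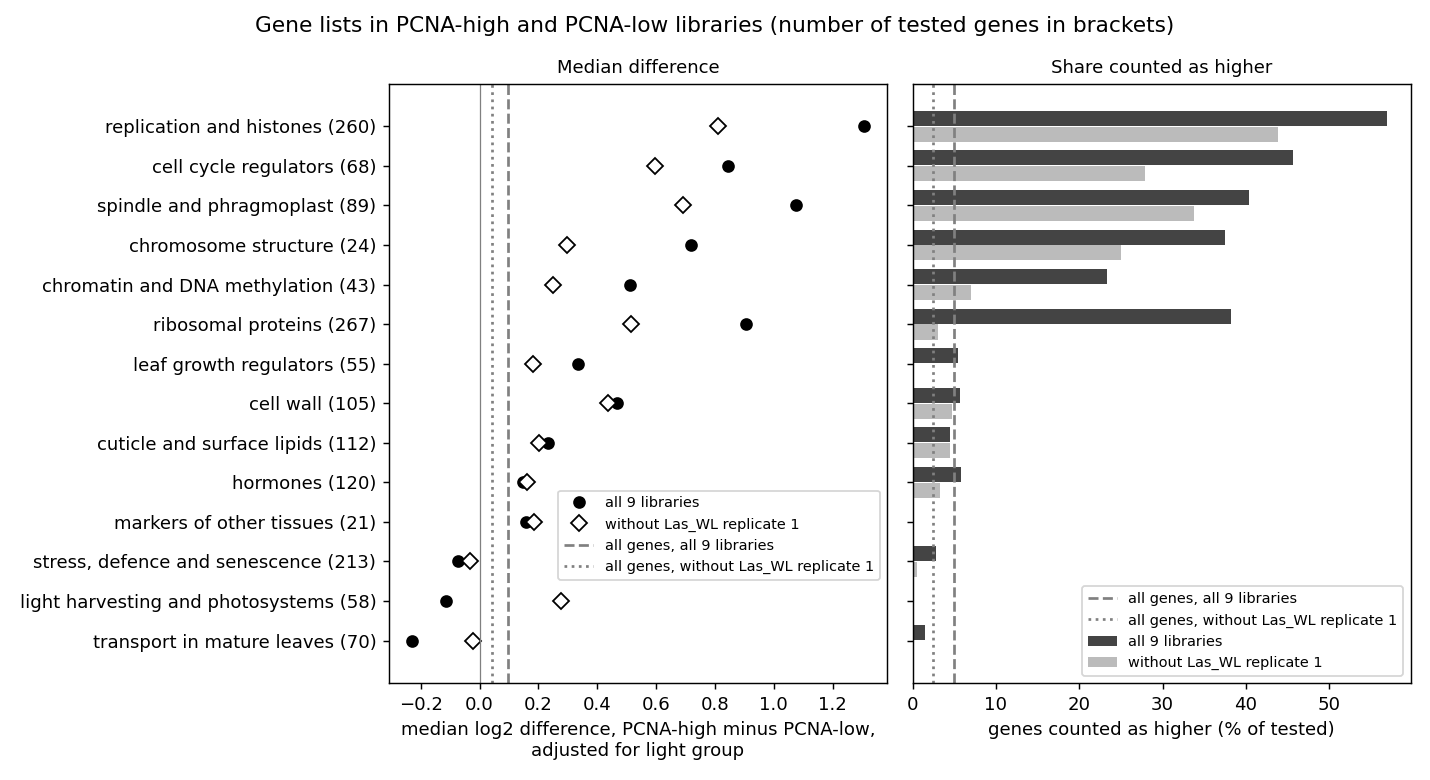
Left, the median light-adjusted log2 difference (PCNA-high minus PCNA-low libraries) of 14 gene lists with all 9 libraries (filled circles) and without Las_WL1 (open diamonds). Right, bars give the share of each list counted as higher with all 9 libraries (dark) and without Las_WL1 (light). Dashed lines mark all genes tested with all 9 libraries (median 0.10, share 4.98%) and dotted lines the same without Las_WL1 (0.04 and 2.47%). Lists of division, chromosomes, chromatin and ribosomal proteins lie to the right of the dashed lines with all 9 libraries. Those of cell wall, leaf growth regulators and hormones do so by less, with shares of 5.71%, 5.45% and 5.83%. Without Las_WL1 the share of the ribosomal proteins (8 of 267 genes) comes close to the dotted line. The list of stomatal lineage, with 1 tested gene, is not drawn.

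Of 55 regulators of leaf growth, 3 (5.45%) were counted as higher, against 4.98% of all genes, with a median log2 difference of 0.34. This count depended on single libraries. It was 10 (18.2%, against 8.53% of all genes) without Las_ML1. It was 6 (10.9%) without Las_SL2 or Las_ML2, where 6.75% and 6.39% of all genes were counted. It was 1 (1.82%, against 4.34%) without Las_WL3, and 0 after quantile normalization, which counted 790 of all genes. The 3 were 2 genes with the QLQ domain of growth-regulating factors, LOC111919944 and LOC111920387, and LOC111916319 with the SSXT domain of their coactivators. In Arabidopsis, such factors and coactivators promote cell division in leaves. With a share so near that of all genes, nothing is read from these 3 genes about their families. LOC111919944 had 1.90, 1.298, 1.37, 1.74 and 7.93 FPKM in the PCNA-high libraries, against 0.87, 1.07, 0.74 and 0.27 FPKM in the PCNA-low libraries. Las_ML1 on the PCNA-low side came close to Las_SL3 on the PCNA-high side. Without Las_WL1 the 3 genes differed by 0.38 to 0.53 and none was counted as higher. The gene table holds another locus with the symbol LOC111916319, outside the list, whose sets overlapped.

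The list of the stomatal lineage had 1 tested gene. LOC111919553 encodes a protein like EPIDERMAL PATTERNING FACTOR 2, in Arabidopsis a secreted peptide that limits the entry of epidermal cells into stomatal development. It had 1.44, 1.72, 1.33, 1.44 and 2.35 FPKM in the PCNA-high libraries, against 0.24, 0.14, 0.48 and 0.28 FPKM in the PCNA-low libraries. The log2 difference was 1.14 with an SE of 0.08, and it was 1.05 within Las_SL, 1.07 within Las_ML and 1.28 within Las_WL. Although its level was low, the difference was nearly the same in the 3 light groups and was 1.06 without Las_WL1. It was 0.91 after quantile normalization, so that the gene was then not counted as higher, and 2.45 with a pseudocount of 0.1.

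Hormone genes did not stand out as a list. Of 120 genes, 7 (5.83%, against 4.98% of all genes) were counted as higher and none as lower. The median was 0.15 (-0.02 after quantile normalization). The count was 4 (3.33%, against 2.47% of all genes) without Las_WL1 and 11 (9.17%, against 8.53%) without Las_ML1. The 3 members with the largest differences were at low levels. LOC111882667, the gene of auxin response factor 5, a transcription factor that in Arabidopsis patterns embryo and vasculature in response to auxin, had 3.92, 1.72, 3.21, 2.60 and 26.6 FPKM in the PCNA-high libraries, against 0.10, 0.56, 0.57 and 0.17 FPKM in the PCNA-low libraries. The auxin efflux carrier LOC111896896 differed by 1.74 (SE 0.42) and the GASA-like gene LOC111885305, of a family of gibberellin-regulated peptides, by 2.58 (SE 0.64). All 3 were still counted as higher without Las_WL1, with differences of 1.15 to 1.69.

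In the cell wall list, 6 of 105 genes (5.71%) were counted as higher, against 4.98% of all genes, and the median was 0.47 (0.44 without Las_WL1). The count was 19 (18.1%, against 5.61% of all genes) without Las_WL2 and 12 (11.4%, against 8.53%) without Las_ML1. It was 10 (9.52%, against 6.39%) without Las_ML2 and 4 after quantile normalization, which counted 790 of all genes. Xyloglucan endotransglucosylases cut and rejoin the hemicellulose between cellulose fibrils, and pectinesterases remove methyl groups from pectin. LOC111890097, which encodes xyloglucan endotransglucosylase/hydrolase protein 9, had 87.8, 69.3, 47.0, 99.0 and 264.2 FPKM in the PCNA-high libraries, against 6.90, 41.5, 8.80 and 6.61 FPKM in the PCNA-low libraries. The sets did not overlap, but Las_ML1 on the PCNA-low side came close to Las_ML2 on the PCNA-high side, and within Las_ML the difference was 0.70. The probable pectinesterase 68 gene LOC111883025 had 5.33 to 28.2 FPKM in PCNA-high libraries and 0 to 2.94 FPKM in PCNA-low libraries. The pectinesterase inhibitor LOC111911143 had 6.53 to 24.6 FPKM and 0.52 to 5.63 FPKM, and its difference was 2.54 within Las_SL, 2.26 within Las_ML and 2.64 within Las_WL.

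The gene with the largest positive difference outside the set-aside genes belonged to the list of cuticle and surface lipids. LOC111887989 encodes a protein with the domain of plant lipid transfer proteins, small proteins that carry lipids and are known from epidermal cells. It had 152.3, 82.2, 66.2, 126.9 and 1061 FPKM in the PCNA-high libraries, against 0.28, 4.18, 7.61 and 0.37 FPKM in the PCNA-low libraries. The log2 difference was 6.30 (SE 1.00), and 5.31 without Las_WL1. Of the list, 5 of 112 genes (4.46%) were counted as higher, against 4.98% of all genes. This count depended on single libraries, and so did the share of all genes. It was 15 (13.4%, against 5.61% of all genes) without Las_WL2 and 12 (10.7%, against 8.53%) without Las_ML1. It was 9 (8.04%, against 6.39%) without Las_ML2 and 8 (7.14%, against 5.76%) without Las_SL3. The other 4 were the GDSL lipases LOC111886847 (3.64, SE 0.76) and LOC111886836 (3.08, SE 0.76), members of an esterase family of which some build the cutin polymer, and 2 genes of lipid transfer proteins, LOC111915888 and LOC111875843, named after their values were seen.

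Other genes with large differences belonged to no list. A cytochrome P450, LOC111920048, of a family of oxidising enzymes, had 26.2, 11.9, 13.1, 18.4 and 95.6 FPKM in the PCNA-high libraries, against 0, 0.10, 1.58 and 0.02 FPKM in the PCNA-low libraries. An aspartic peptidase, LOC111888779, had 34.2 to 207.0 FPKM in PCNA-high libraries and 0.32 to 12.1 FPKM in PCNA-low libraries. The aquaporin-like gene LOC111919307, of a family of water channels, had 7.08 to 55.2 FPKM and 0 to 1.49 FPKM, and the thaumatin LOC111904661, of a family that includes defence proteins, had 10.2 to 114.1 FPKM and 0.32 to 2.03 FPKM. LOC111908304 (arginine repressor C-terminal-like domain), LOC111902743 (calponin homology domain, which binds actin in many proteins) and LOC111918248 (WD40 repeats) differed by 4.07, 3.86 and 3.73 (SE 0.53 to 0.59). All 15 described genes with the largest differences were also counted as higher without Las_WL1.

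Genes lower in PCNA-high libraries were few, and 9 of the 15 had a description. The difference of most of them rested on Las_WL1, which was the lowest library for 13 of the 15. The cytochrome P450 LOC111916052 had 2.39, 3.99, 2.92, 2.84 and 0.72 FPKM in the PCNA-high libraries, against 9.81, 4.25, 8.10 and 10.8 FPKM in the PCNA-low libraries. A concanavalin A-like lectin, LOC111882262, had 2.05, 6.38, 2.07, 4.70 and 1.07 FPKM in the PCNA-high libraries, against 10.9, 7.11, 6.75 and 8.68 FPKM in the PCNA-low libraries. The lectin gene was the only described one still counted as lower without Las_WL1 (-1.45 with all libraries, -1.14 without it).

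The other described genes differed by -1.03 to -1.11 and by -0.46 to -0.71 without Las_WL1. They were a gene like the flagellin receptor FLS2 (LOC111907312), a B-box zinc finger gene (LOC111884885), a peptidase of the caspase-like C14 family (LOC111899539), another lectin (LOC111899978), a fatty acid desaturase (LOC111885018), a gene with the phosphate-sensing SPX domain (LOC111912858) and an ammonium transporter (LOC111886494). The ammonium transporter had 30.9, 33.9, 34.2, 23.8 and 9.30 FPKM in the PCNA-high libraries, against 53.0, 35.7, 44.3 and 54.4 FPKM in the PCNA-low libraries. Las_ML1 and Las_ML2 were nearly equal there.

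An unnamed transcribed locus, MSTRG.12114, chosen after its values were seen, had the most negative difference (-6.59). It had 0, 1317, 1250, 6.81 and 0 FPKM in Las_SL1, Las_SL3, Las_ML2, Las_ML3 and Las_WL1, against 1406, 1601, 1337 and 1534 FPKM in Las_SL2, Las_ML1, Las_WL2 and Las_WL3. This locus was therefore present at a full level in 2 PCNA-high libraries and listed near or at 0 in the other 3. The highest PCNA-high and the lowest PCNA-low value, 1317 and 1337 FPKM, were close. The PCNA-high libraries at a full level, Las_SL3 and Las_ML2, had 13.1 and 20.3 FPKM of PCNA, and Las_ML3 had 23.3 FPKM. A link between the level of this locus and that of PCNA was not tested.

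Lists of mature leaf functions had small medians over all libraries, but that of light harvesting combined opposite differences within light groups. Light-harvesting and photosystem genes, which mark the leaf, were abundant in every library, with a sum of 22410 to 50920 FPKM in PCNA-high libraries and 30880 to 54930 FPKM in PCNA-low libraries. None of the 58 genes had sets without overlap, against 13.8% of all genes that were higher and 0.432% that were lower. The median was -0.11 with all libraries and 0.28 without Las_WL1, so no direction can be given. Within Las_WL it was -1.01, within Las_ML 0.52 and within Las_SL 0.12. Genes of sugar and nutrient transport had a median of -0.23 (-0.02 without Las_WL1). Of these 70 genes, only the ammonium transporter was counted as lower, as were 0.0574% of all genes. The NRT1/PTR FAMILY gene LOC111908473 was the 1 gene (1.43%, against 4.98% of all genes) counted as higher. LOC111916845, of the same family, and the vacuolar amino acid transporter LOC111913419 differed by -0.96 and -0.41 without overlap (-0.43 and -0.20 without Las_WL1). With the ammonium transporter, the sets did not overlap for 3 of the 70 genes in the lower direction, against 0.432% of all genes. In the higher direction this held for 4 of them (5.71%, against 13.8% of all genes). Of 213 genes of stress, defence and senescence, 6 (2.82%, against 4.98% of all genes) were counted as higher, with a median of -0.08. The count was 12 (5.63%) without Las_SL2 or Las_ML1, where 6.75% and 8.53% of all genes were counted. It was 10 (4.69%, against 6.39% of all genes) without Las_ML2. The count was 4 after quantile normalization, which counted 790 of all genes, and 4 (1.88%, against 4.34%) without Las_WL3. Without Las_WL1 it was 1 (0.469%, against 2.47%). The late embryogenesis gene LOC111876013 was the one of these 6 that was also counted without Las_WL1, and it had 1.64 to 9.06 FPKM in PCNA-high libraries and 0.26 to 1.03 FPKM in PCNA-low libraries. The NAM-type LOC111876402 and the heat shock factor-type LOC111915264 had at most 1.28 FPKM outside Las_WL1.

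Markers of other tissues, such as pollen, anther and root cap, were looked at in the same way. Of 49 genes in the table, 21 passed the minimum level and none was at 0 in every library. Their summed level was 554.5 to 623.8 FPKM in PCNA-high libraries and 361.2 to 612.2 FPKM in PCNA-low libraries, and the ranges overlapped through Las_WL2. Over the 21 genes alone, the PCNA-high libraries had 548.0 to 620.9 FPKM, against 359.4, 539.2, 610.9 and 399.5 FPKM in the PCNA-low libraries Las_SL2, Las_ML1, Las_WL2 and Las_WL3. Without Las_WL2 these sums did not overlap, and their part in the differences was not tested. None of the 21 was counted as higher or lower, beside 4.98% and 0.0574% of all genes. LOC111907366, annotated as an S-ribonuclease binding protein of pollen, had sets without overlap (difference 0.74, SE 0.17).

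**Figure D3:**
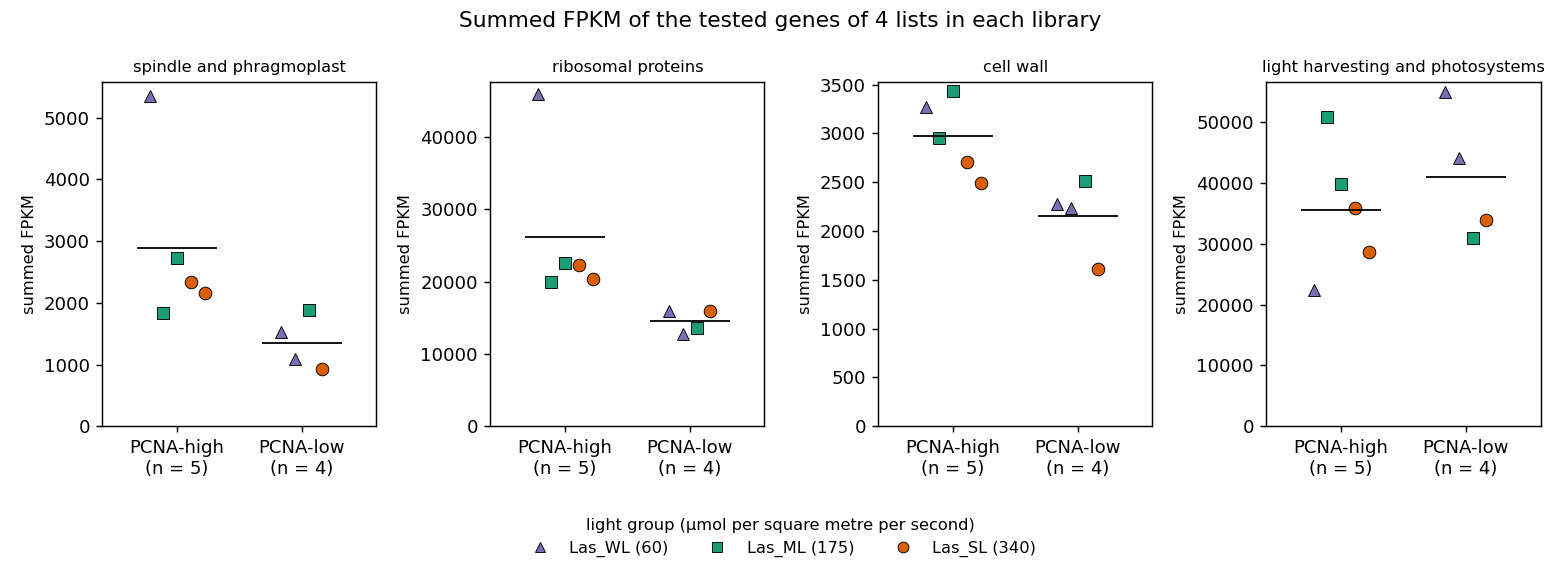
Summed FPKM of the tested genes of 4 lists in each library, PCNA-high libraries on the left of each panel, with the light group as colour and shape and the mean of the set as a line. The sums of ribosomal protein genes do not overlap (19970 to 45910 and 12720 to 15920 FPKM), whereas those of light harvesting and photosystem genes do (22410 to 50920 and 30880 to 54930 FPKM). Las_WL1 is the highest point for ribosomal proteins and the lowest for light harvesting.

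The labelled light groups were the only groups that could be tested. With limma and Benjamini-Hochberg adjustment over all 26145 genes (adjusted p below 0.05, absolute log2 fold change at least 1), 1 gene (0.00382%) was called between Las_SL and Las_ML, none (0%) between Las_WL and Las_ML, and 767 (2.93%) between Las_SL and Las_WL. At an unadjusted p below 0.05, whatever the fold change, there were 1442, 3604 and 6880 genes. The 1 gene called between Las_SL and Las_ML was the unnamed locus MSTRG.24322, which had 11.6 to 13.3 FPKM in Las_SL and 0.18 to 1.27 FPKM in Las_ML. None of the 1302 genes counted as higher and none of the 15 counted as lower was called in any of the 3 comparisons, and none of the 1302 had an unadjusted p below 0.05. Since each light group held both sets, the way these genes were picked gave them a wide spread inside the groups, and nothing is read from this count.

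The sets also entered the light comparisons. When the PCNA set was added to the fit as a covariate, limma called 2 genes between Las_SL and Las_ML, 254 between Las_WL and Las_ML, and 2215 between Las_SL and Las_WL, and 761 of the 767 genes were among the 2215. Without Las_WL1 and without the covariate, the counts were 2, 77 and 1077. The count for Las_SL against Las_WL depended on the scaling and was 6 after quantile normalization. It was also 0 to 11 without any 1 of Las_SL2, Las_SL3, Las_ML2, Las_ML3 and Las_WL2, and 250 and 418 without Las_SL1 and Las_ML1. A covariate that was itself defined by expression does not give an independent test. Las_WL also held fewer PCNA-high libraries than the other light groups, so the covariate changed the light differences as well as the spread. With it, 60 of the 1302 genes counted as higher were called between Las_SL and Las_WL. These counts therefore do not measure the spread alone.

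Back-spliced reads per mapped read were fewer in PCNA-high libraries of each light group. The circRNA table held 836, 704, 863, 747 and 398 back-spliced reads in the PCNA-high libraries Las_SL1, Las_SL3, Las_ML2, Las_ML3 and Las_WL1, against 990, 1036, 704 and 558 in the PCNA-low libraries Las_SL2, Las_ML1, Las_WL2 and Las_WL3. Per 1000000 uniquely mapped reads, the rates were 11.98, 11.2, 11.6, 11.04 and 5.77 in PCNA-high libraries, and 14.5, 11.9, 10.7 and 9.09 in PCNA-low libraries. Over all libraries the ranges overlapped, but within each light group every PCNA-high library had a lower rate than every PCNA-low library. The adjusted log2 difference was -0.39 (SE 0.14), or 0.762-fold. With candidate junction reads as the divisor it was -0.65 (SE 0.25), and the order no longer held within Las_ML.

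The size varied with the light group. The ratio of the mean rates of PCNA-high to PCNA-low libraries was 0.583 within Las_WL, 0.95 within Las_ML and 0.797 within Las_SL. In Las_WL1 the exact 95% Poisson interval was 5.22 to 6.37 reads per 1000000 mapped reads, against 9.95 to 11.6 in Las_WL2 and 8.35 to 9.88 in Las_WL3. Within Las_ML the intervals overlapped (10.8 to 12.4 in Las_ML2 and 10.3 to 11.9 in Las_ML3, against 11.2 to 12.7 in Las_ML1), so a difference was not detectable there at this depth. These intervals cover counting error only. Without Las_WL1 the log2 difference was -0.20 (SE 0.10).

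**Figure D4:**
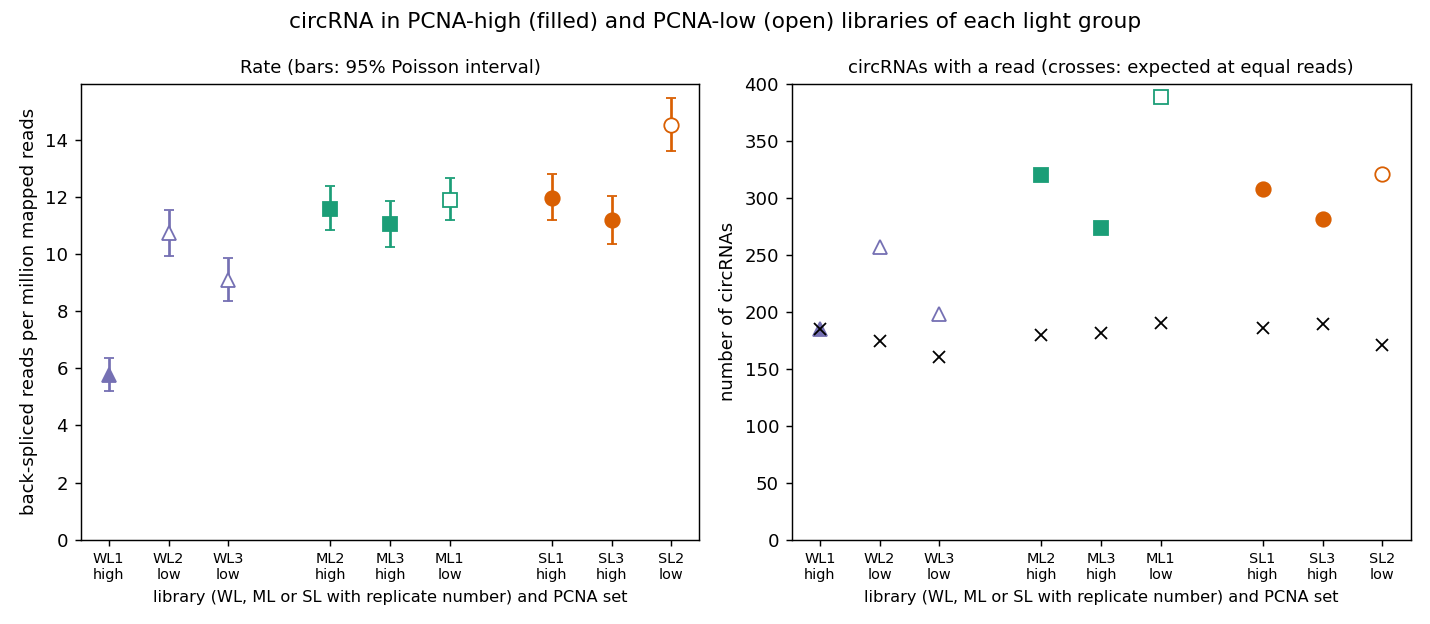
Left, back-spliced reads per 1000000 uniquely mapped reads in each library with the exact 95% Poisson interval. Right, the number of circRNAs with a read (symbols) and the number expected at 398 reads per library (crosses). Libraries are ordered by light group from 60 to 340 µmol per square metre per second, with PCNA-high libraries (filled) left of PCNA-low libraries (open) in each group. Within each light group the filled points lie below the open ones on the left, and the crosses do not keep this order.

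Part of the difference came with 1 circRNA. circRNA132, of 1 exon of the gene LOC111877779 with an XS domain, at positions 183667 to 183968 of its scaffold on the plus strand in the authors' coordinates on the build Lsat_Salinas_v7, held 1674 of the reads. It had 209, 164, 235, 161 and 58 reads in the PCNA-high libraries, against 318, 236, 176 and 117 in the PCNA-low libraries. Without it, the log2 difference of the rates was -0.30 (SE 0.11), and the order within each light group held. circRNA213, of 4 exons of the pentatricopeptide repeat gene LOC111877918, had 34, 38, 58, 50 and 9 reads in the PCNA-high libraries, against 58, 63, 65 and 60 in the PCNA-low libraries. The parental genes of these 2 circRNAs differed by -0.05 and -0.18 in log2(FPKM + 1). Per mapped read, neither circRNA had a lower mean in the PCNA-high libraries within Las_ML, although circRNA132 was lower in Las_ML3 than in Las_ML1.

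The other abundant circRNAs had fewer reads. circRNA24 of a tripeptidyl peptidase II gene, LOC111900783, had 22, 16, 29, 25 and 7 reads in the PCNA-high libraries, against 21, 27, 12 and 19 in the PCNA-low libraries. circRNA190 of a ribulosamine 3-kinase gene, LOC111912867, had no read in Las_ML2, where a count of 0 allows up to 3, and 9 to 19 in the other libraries. circRNA184 of another lectin-like gene, LOC111889346, had 13, 11, 10, 10 and 0 reads in the PCNA-high libraries, against 13, 34, 3 and 9 in the PCNA-low libraries. Of the 72 circRNAs with at least 10 reads, 50 had a lower rate in PCNA-high libraries after adjustment for light and 22 a higher one. Of the 72, 13 were lower on average within all 3 light groups, and the number higher within all 3 was not counted. The rate over all circRNAs was lower as well, so nothing is read from these counts about single circRNAs.

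The number of circRNAs followed the number of reads. It was 308, 282, 320, 274 and 185 in the PCNA-high libraries, against 321, 389, 257 and 198 in the PCNA-low libraries, and within each light group the PCNA-high libraries had fewer. The adjusted log2 difference was -0.27 (SE 0.11). At an equal number of 398 reads per library, however, 180 to 189 circRNAs were expected in PCNA-high libraries and 161 to 191 in PCNA-low libraries, and the log2 difference was 0.07 (SE 0.05).

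Genes that followed PCNA gave few back-spliced reads. Of the 1302 genes counted as higher, 44 (3.38%) had a circRNA in the table, against 1312 (5.02%) of all genes tested, and none of the 15 lower genes had one. Their 48 circRNAs held 62 of the 6836 reads, with 2, 7, 6, 9 and 18 reads in the PCNA-high libraries, against 7, 6, 3 and 4 in the PCNA-low libraries. Only Las_WL1 stood out. The share of its back-spliced reads from these genes was 4.52% (exact binomial 95% interval 2.70 to 7.05%), against 0.239 to 1.21% in the other 8 libraries. No circRNA of these genes had more than 3 reads. The circRNAs with the most reads were circRNA1188 of a kinesin gene, LOC111905110, with 3 reads in Las_ML3, and circRNA1441 of LOC111893079, with 3 reads in Las_WL3. The cyclin gene LOC111915509 gave 2 of them, circRNA1085 with 2 reads in Las_ML3 and circRNA1218 with 2 reads in Las_WL1. With so few reads, no difference of a single circRNA could be detected.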

How the data were processed

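Total RNA of 9 leaf libraries was sequenced. According to the study's methods, rRNA was depleted and linear RNA digested with RNase R, whereas the labels describe poly(A) selection. The study names TopHat2, TopHat-Fusion and CIRCexplorer with Lsat_Salinas_v7, while the submitters' processing notes list Bowtie 0.12.2, HISAT2 2.0, StringTie 1.3.0 and the mouse build mm8. Light intensities were taken from the methods and labels. The opening of the study's results gives them in the opposite order.

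The deposited circRNA table holds the raw count of back-spliced reads (398 to 1036 per library) and an SRPBM signal, which the authors scaled by candidate junction reads and which was used only for that divisor. The authors' gene table holds FPKM values without read counts, so the depth behind them is unknown. Uniquely mapped reads of the study were used as divisor of the rates. No genome or promoter sequences were used.

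log2(FPKM + 1) was fitted by least squares on light group and PCNA set over the 26145 of 35342 genes whose FPKM averaged 0.5 or more (Python 3.11.15, numpy 2.4.6, pandas 2.3.3, scipy 1.17.1, matplotlib 3.10.9). Light groups were tested with limma 3.58.1 (trend) in R 4.3.3 over all 9 libraries without a block. The set differences and the limma fit were tested on simulated data. The separation of replicates is described only as 3 biological replicates, and p-values measure the spread between these samples.

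The PCNA rule, the 15 gene lists and the tests were chosen with earlier results of these data known. After the table was seen, 233 genes without another list were added to the set-aside genes by their KEGG or GO entries. Named genes are the 15 described genes with the largest difference in each direction among those counted, up to 3 per list without overlap, the 5 most like PCNA, 3 set-aside genes, the 5 circRNAs with the most reads and up to 5 of counted genes. Alternatives were other pseudocounts, filters, scalings and covariates, a replicate block, and each library left out. Pathways came from the KEGG column of the table. Some pathway results are not reported here. No column of per-sample values was left unused.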

Additional observations from a re-analysis of the deposited data

Results flagged for a closer look

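A library far from the others of its set was looked for in each named gene on the log2(FPKM + 1) scale and in the circRNA values, by its gap to the nearest library against the range of the set. For a single set of independent values, chance gives such a gap in about 1 of 20 cases. Of the 55 named genes, each looked at in both sets, 25 had one. Most of these genes were picked for a large difference, so the chance rate is no yardstick for this count. On the FPKM scale Las_WL1 stood apart among the PCNA-high libraries for 43.

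Las_WL1 was the high library with 112.0 FPKM of the kinase gene LOC111878453, 108 of the syntaxin LOC111919148, 79.8 of the kinesin LOC111889633, 63.6 of LOC111902743, 42.8 of the cyclin LOC111889445, 378 of the tubulin LOC111906810 and 32.7 of LOC111885312. It was high for the ribosomal protein genes LOC111916774 (215 FPKM), LOC111891564 (128 FPKM) and LOC111895270 (312 FPKM). It further had 7.93 FPKM of LOC111919944, 26.9 of LOC111885305, 26.6 of LOC111882667, 14.6 of LOC111896896, 24.6 of LOC111911143, 6.31 of LOC111876402 and 9.23 of LOC111915264. It was the low library for the ammonium transporter LOC111886494 (9.30 FPKM), for LOC111899539 (4.35 FPKM) and for LOC111912858 (2.27 FPKM), and its rate of 5.77 back-spliced reads per 1000000 mapped reads stood apart below the other 4 PCNA-high libraries. A cause common to these values was not tested.

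Among the PCNA-low libraries, Las_WL2 stood apart above the others for LOC111920048 (1.58 FPKM), LOC111894268 (0.939 FPKM) and LOC111883025 (2.94 FPKM). Las_ML1 did so for LOC111920387 (0.765 FPKM) and LOC111890097 (41.5 FPKM), and Las_SL2 for LOC111895270 (44.6 FPKM).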

How the results depend on the processing

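The 1302 genes counted as higher became 684 at a mean of at least 5 FPKM, 790 after quantile normalization and 3608 without a limit on the size, and the 15 genes counted as lower became 36 with a pseudocount of 0.1, 52 after quantile normalization, 27 after rescaling without the 10 most abundant genes, 6 without the light covariate and 113 without a limit on the size. Quantile normalization moved the median log2 difference of all genes to -0.08. Leaving out each library in turn gave 647 (without Las_WL1) to 2229 (without Las_ML1) genes higher and 3 (without Las_WL1) to 84 (without Las_ML1) genes lower, with 68, 36, 40 and 27 lower without Las_SL2, Las_SL3, Las_ML2 and Las_WL2. The 3 were the lectin gene LOC111882262 and the unnamed loci MSTRG.12114 and MSTRG.11557.

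Genes called between Las_SL and Las_ML (1) became 0 with a pseudocount of 0.1 or a mean of at least 5 FPKM, 2 without a filter or with the PCNA set as a covariate, and 373 at an unadjusted p of 0.05 or less with the same limit on the fold change. Between Las_WL and Las_ML (0) they became 2 with a pseudocount of 0.1, a mean of at least 5 FPKM or quantile normalization, 1 without a filter, 254 with the PCNA set and 594 unadjusted. Between Las_SL and Las_WL (767) they became 6 after quantile normalization, 324 after rescaling, 2215 with the PCNA set and 1640 unadjusted. Leaving out each library gave 0 to 11, 0 to 77 and 0 to 1077 genes, with 0 for Las_SL vs. Las_WL without Las_SL3 and the 3 highest counts without Las_ML1, Las_WL1 and Las_WL1. With a replicate block 0 genes were called in each comparison. Deviations of same-numbered libraries had correlations between -0.52 and 0.56. Those of libraries of the same PCNA set were -0.073 to 0.573, and those of different sets -0.605 to 0.019. Same-numbered pairs mix both kinds, so a pairing by number cannot be judged from them.

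The log2 difference in the rate of back-spliced reads was -0.39, became -0.65 with candidate junction reads as divisor, where the order within Las_ML no longer held, and ranged from -0.55 (without Las_ML1) to -0.20 (without Las_WL1). That in the number of circRNAs was -0.27, ranged from -0.34 to -0.21 when a library was left out, and turned to 0.067 at equal reads. Of 810 values of named genes under the alternatives 51 moved by more than 1 residual SD and of 239 list medians 19 did, mostly with a pseudocount of 0.1 or without Las_WL1, and no named gene changed sign. The stomatal list had no gene at a mean of at least 5 FPKM. The promoter motifs were not searched. The depth of 398 to 1036 back-spliced reads limits statements on single circRNAs.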

Other observations

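Genes outside the 15 lists were also grouped by the KEGG pathways of the gene table, a step chosen after the data were seen and given as a description without a test. Of 112 pathways with at least 20 such genes tested, ribosome (41 of 187 genes), homologous recombination (11 of 78), biotin metabolism (3 of 23) and nucleotide excision repair (10 of 103) were among those with the largest shares counted as higher in PCNA-high libraries, beside 3.80% of all genes outside the lists. A gene can belong to several pathways. A RecQ-type DNA helicase, LOC111877989, had 1.55 to 9.92 FPKM in PCNA-high libraries and 0.12 to 0.25 FPKM in PCNA-low libraries. In biotin metabolism, the 3 genes encode enzymes of fatty acid synthesis. The 3-keto-acyl-ACP synthase I gene LOC111890873 had 11.01 to 48.7 FPKM in PCNA-high libraries and 3.06 to 9.79 FPKM in PCNA-low libraries. The enoyl-ACP reductase gene LOC111890240 had 9.89 to 30.8 FPKM and 4.30 to 6.19 FPKM, and the hydroxyacyl-ACP dehydratase gene LOC111899019 differed by 1.47.

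Ribosome biogenesis, the assembly of ribosomes in the nucleolus, had 19 of 213 genes (8.92%) counted as higher, and 164 of the 213 had a positive difference. Several pathways had no gene counted as higher or lower. Among them were photosynthesis (38 genes, median log2 difference -0.10), flavone and flavonol biosynthesis (36 genes, -0.27) and fatty acid elongation (69 genes, 0.16). At a share of 3.80% few genes of such pathways would be counted, so nothing is read from these counts. In photosynthesis the sets did not overlap for 4 genes (10.5%) in the higher direction, against 12.5% of all genes outside the lists.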
